A study of Mus musculus with 6 samples.

Results

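The antiviral effector genes of the interferon response were compared between parental CT26.mMR1 cells and M8 cells by RNA sequencing. The genes were taken by name, from a list of 48 mouse gene symbols that covers the IFIT, OAS, Mx, IFITM, ISG15, TRIM and IFI families and related effectors. Of these, 46 had a row among the 24346 gene symbols of each sample, and all 46 passed the filter on low values, a mean of at least 1 FPKM over the 6 samples. Ifih1l and Rnf213 had no row under these names and were not analysed here. FPKM values give the sequenced fragments of a gene relative to the length of its transcript and to the size of the library. Values after ± are standard errors of limma's fit beside a log2 fold change, and standard deviations (SD) where so marked.

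CT26 is a colorectal tumor line from the BALB/c mouse. Parental CT26.mMR1 cells (3 samples) carry a retroviral copy of mouse MR1, the protein that presents metabolites to mucosal-associated invariant T cells. M8 (3 samples) was made from the same MR1-overexpressing cells with the mutagen N-ethyl-N-nitrosourea and is 1 clone, obtained by limiting dilution and picked in a screen for stronger activation of a T cell reporter line and higher surface MR1. Both lines thus descend from cells that received a retroviral vector, neither was given interferon as far as the labels and methods state, and the parental cells were the control. The sample titles of both lines carry the mark cl9, and whether the parental cells are also a clone is not stated in the sources used here. Because M8 is a single clone, the effect of mutagenesis and the difference between clones cannot be told apart. The labels speak of RNA samples of each line and do not say whether these came from separate cultures, so the p-values measure only the spread between these samples.

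Interferons bind receptors on the cell surface, whose Janus kinases switch on a complex of transcription factors that holds STAT2 and IRF9. This complex binds the interferon-stimulated response element (ISRE) in the promoters of many genes. Many of the products act against viruses directly, by binding viral RNA, blocking entry, degrading nucleic acids, lowering nucleotide pools or attaching ISG15 and ubiquitin to proteins. Tumor cells often keep a part of this program switched on without an added interferon.

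Library depth, estimated from the steps that whole reads leave in the values of weakly expressed genes, was 23800000 to 26900000 mapped reads in the parental samples and 19400000 to 22000000 in M8. In limma's test across 10597 genes, 2250 genes (21.2%) had higher levels in M8 and 1745 (16.5%) lower levels at an adjusted p below 0.1. That balance depended on scaling, with 1658 higher and 2209 lower genes after conversion to TPM and 1848 and 2154 after upper-quartile scaling. The labels give colon as the tissue, but of 8 epithelial markers Epcam, Cdh1, Krt19 and Cdx2 were listed at 0 in all 6 samples. Krt8 and Vil1 had means below 1 FPKM, Krt18 was at 24.5 to 38.4 FPKM, and Krt20 was lower in M8 (10.8 to 12.7 FPKM) than in parental cells (15.1 to 19.8 FPKM). Of 4 fibroblast markers, Col1a1 and Col1a2 were above 80 FPKM in every sample, Pdgfrb was higher in M8 (24.2 to 26.4 FPKM, and 20.6 to 22.2 FPKM in parental cells) and Pdgfra lower (2.09 to 2.63 and 3.14 to 3.63 FPKM). The 14 leukocyte, T cell, NK, B cell and dendritic markers reached at most 0.274 FPKM in any sample. Of 4 macrophage markers, Adgre1 and Csf1r were at 0 throughout and Cd68 lay lower in M8 (1.39 to 2.46 FPKM) than in parental cells (3.77 to 4.90 FPKM). Depth, Cd68, Krt20, Pdgfra and Pdgfrb thus differed between the lines, and their part in the results was not tested. In RNA of whole cultures, fewer cells that express a gene and less RNA of it per cell cannot be told apart.

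The effector genes were mostly higher in M8, by small amounts. Of the 46 genes, 36 (78.3%) were higher and 2 (4.35%) were lower, and 8 did not pass the threshold, beside 21.2% and 16.5% of all genes tested. Over the 46 genes the median log2 fold change was 0.27 and the median ratio of means 1.21, beside 0.0069 on the log2 scale over all genes tested, and the middle part of the list, between its quartiles, spanned 0.15 to 0.39. Ifi44l, Mx1, Isg15, Tor3a and Ifit3 rose furthest on the scale of log2(FPKM + 1), and Ifi27 and Isg20 fell. By the ratio of means Cmpk2 (1.48) stood above Ifit3 (1.45). The M8 values were all above the parental ones in 34 genes and all below in 3 (Ifi27, Isg20 and Ifi30), beside 24.8% and 20.4% of all genes tested. On the scale of log2(FPKM + 1), changes of at least 1.5-fold that also passed the test were limited to Ifi44l, Mx1 and Isg15 upward and Ifi27 downward, beside 0.396% and 0.698% of all genes. Tor3a, with a ratio of means of 1.502, fell just short on that scale. The study compared the lines to find what sets M8 apart, and these genes had been seen to differ in earlier work with these values, so their counts are a description and not an independent test. An exact two-sided permutation test of a single gene cannot go below p = 0.1 with 3 samples against 3, and every gene whose groups did not overlap was at that limit.

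**Figure D1:**
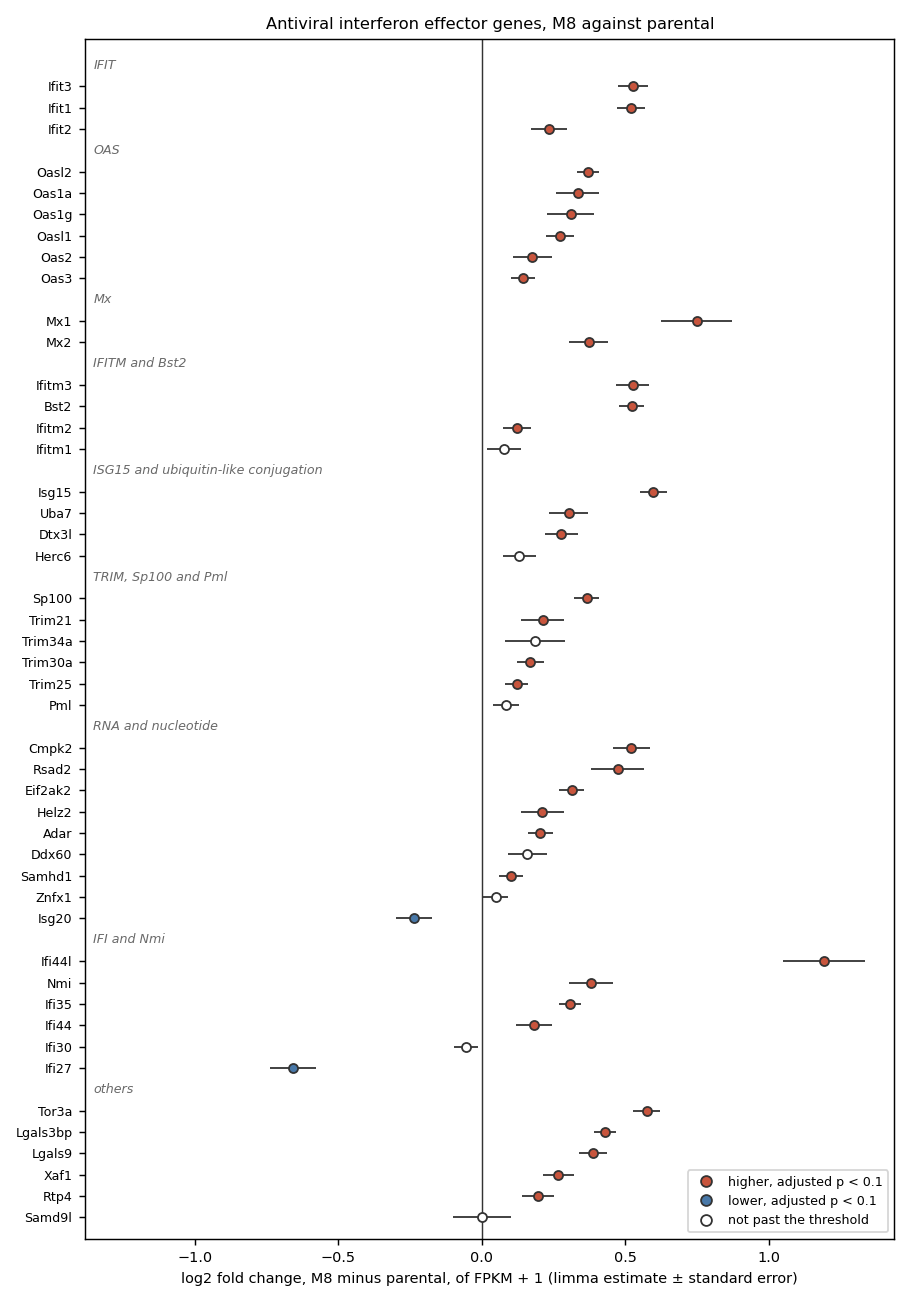
Log2 fold change of FPKM + 1, M8 minus parental, for the 46 effector genes grouped by role, with the standard error of limma's fit as bars. Filled points passed an adjusted p of 0.1 (36 higher, 2 lower) and open points did not (8 genes). Ifi44l lies farthest right at 1.19 and Ifi27 farthest left at -0.66.

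Of the 38 calls, 28 held in every one of 16 other fits that tested the gene (other pseudocounts, filters, scalings and variance models, a replicate block, and fits that left out 1 sample). Among these 28, Mx1 was below the minimum of 5 FPKM and so was not tested in that fit. The other 10 were those of Helz2, Ifi44, Ifitm2, Oas2, Oas3, Rtp4, Samhd1, Trim21, Trim25 and Trim30a, whose log2 fold changes were all at most 0.21. Of these calls, Samhd1 was lost without parental replicate 1, and Helz2, Ifi44, Oas2, Samhd1, Trim21 and Trim25 without parental replicate 2. Without parental replicate 3 the same set was lost with Ifitm2 in place of Samhd1. Without M8 replicate 1, Helz2, Ifi44, Ifitm2, Oas2, Oas3, Samhd1, Trim21 and Trim25 were lost, and without M8 replicate 2, Helz2, Ifitm2, Oas2, Rtp4, Samhd1, Trim21 and Trim25. Without M8 replicate 3, Ifi44, Ifitm2, Oas2, Samhd1 and Trim25 were lost. Of the 8 genes that did not pass, Ddx60 passed as higher with quantile normalization, with eBayes without a trend, with the replicate block and without parental replicate 1. Herc6 passed as higher without parental replicate 1 and Trim34a without M8 replicate 1. Leaving out 1 sample gave 37 higher genes without parental replicate 1, 30 without parental replicate 2 or 3, 29 without M8 replicate 1 or 2 and 31 without M8 replicate 3. The count over all genes moved too, from 2101 of 10585 higher without parental replicate 1 to 1609 of 10617 without M8 replicate 1. Conversion to TPM left 28 of the 36, and quantile normalization 27 of them, with 1 other gene gained.

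The response element itself was looked for in the promoters of these genes, in RefSeq windows (build GRCm38.p6) from 250 bases before to 50 bases after a transcription start. Windows were found for 40 of the 46 genes, and not for Oas2, Mx1, Mx2, Ifi27, Rtp4 and Tor3a. The ISRE letters, GAAA, then any 2 bases, then GAAA again, searched on both strands, stood in at least 1 window of 16 of the 40 genes (40.0%), beside 3.99% of all 27025 genes with a window and 3.92% of the 8167 of them that were tested. The letters TTCNNNGAA, the core of the gamma-interferon activation site, which reads the same on both strands, stood in 9 genes (22.5%), beside 9.55% of all genes with a window. Matches to both motifs overlap in the windows of Bst2 and Ifitm3. The genes were listed as effectors of interferon, so these shares describe the list and not a difference between the lines. Of the 16 genes with the ISRE letters, 14 were higher in M8 and 0 were lower, with a median log2 fold change of 0.32. Of the 24 without them, 17 were higher and 1 was lower, with a median of 0.22. Among other genes tested, 83 of 304 with the letters (27.3%) and 1638 of 7823 without them (20.9%) were higher. Of the same genes 49 (16.1%) and 1286 (16.4%) were lower, and the median log2 fold changes were 0.033 and 0.0065. A match is a stretch of letters and not a bound site, and a window without a match says only that these letters are not in it.

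The stretches below are shown because they hold the ISRE letters in genes that the results turn on, and because Oas1a and Oas1g, and Ifitm2 and Ifitm3, are relatives that can be compared. Each is written 5′ to 3′ in the direction of transcription, with the matches in capitals, which read TTTC, any 2 bases and TTTC where the element lies on the other strand. In Isg15 3 matches run into one another, as 2 do in Bst2, Oas1a and Oas1g, whereas the 2 matches of Ifit1 and of Ifit3 stand apart. The Ifitm2 match lies before the transcription start, and both Ifitm3 matches lie after it, from base 3 to base 29.
Isg15 (chr4:156200865-156200906, minus strand): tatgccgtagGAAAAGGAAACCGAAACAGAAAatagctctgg
Bst2 (chr8:71537577-71537612, minus strand): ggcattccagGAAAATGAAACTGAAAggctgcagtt
Ifit1 (chr19:34640775-34640823, plus strand): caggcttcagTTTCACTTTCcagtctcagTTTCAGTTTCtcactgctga
Ifit3 (chr19:34583363-34583426, plus strand): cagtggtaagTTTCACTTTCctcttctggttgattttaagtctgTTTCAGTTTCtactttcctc
Oas1a (chr5:120907526-120907555, minus strand): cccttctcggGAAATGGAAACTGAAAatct
Oas1g (chr5:120887614-120887641, minus strand): cccttctcggGAAATGGAAACTGAAAat
Oas3 (chr5:120777715-120777744, minus strand): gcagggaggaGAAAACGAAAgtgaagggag
Rsad2 (chr12:26456553-26456582, minus strand): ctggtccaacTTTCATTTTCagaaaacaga
Ifitm2 (chr7:140955988-140956017, minus strand): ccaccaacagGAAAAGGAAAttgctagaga
Ifitm3 (chr7:141010716-141010742, minus strand): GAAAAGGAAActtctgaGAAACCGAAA

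All 3 IFIT genes rose. IFIT proteins bind viral RNA through tetratricopeptide repeats and keep it from being translated, and their genes lie side by side on chromosome 19. Ifit1 stood at 43.7, 42.4 and 38.8 FPKM in parental replicates 1 to 3 and at 60.5, 60.4 and 59.2 FPKM in M8 (log2 fold change 0.52 ± 0.049, adjusted p by limma = 0.000261). Ifit3, the partner that stabilizes IFIT1 in human cells, was at 34.2, 30.4 and 30.2 FPKM in parental cells and at 45.3, 46.0 and 46.4 FPKM in M8 (log2 fold change 0.53). In both genes the M8 values lay close together and well above the parental ones. Ifit2 rose from 12.66 ± 1.002 FPKM in parental samples to 15.04 ± 0.637 FPKM in M8 (SD, n = 3), a difference of 0.23 ± 0.063 on the log2 scale (adjusted p by limma = 0.0232). The ratio of Ifit3 to Ifit2 within a sample was 2.47 to 2.52 in parental cells and 2.92 to 3.19 in M8, whereas that of Ifit3 to Ifit1 overlapped (0.716 to 0.782 and 0.749 to 0.783). Ifit3 has a close copy, Ifit3b, with which reads can be shared, so its values are less certain.

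All 6 OAS genes were higher, by 0.14 to 0.37 on the log2 scale, and the calls of Oas2 and Oas3 were among those lost in some fits. The 2′-5′-oligoadenylate synthetases make a messenger that activates RNase L when they meet double-stranded RNA, and OAS-like proteins are their relatives. The most strongly expressed was Oasl2, with 141, 140 and 137 FPKM in parental cells and with 185, 177 and 178 FPKM in M8 (log2 fold change 0.37 ± 0.037, adjusted p by limma = 0.000319). Oas1a was at 108, 92.5 and 107 FPKM in parental cells and at 116, 138 and 134 FPKM in M8, a log2 fold change of 0.33. The groups of both genes were apart, with a wider spread for Oas1a. Oas1g followed with 49.99, 38.9 and 42.6 FPKM in parental samples and 51.2, 54.6 and 57.1 FPKM in M8 (log2 fold change 0.31, limma adjusted p = 0.0215), so that parental replicate 1 came close to the lowest M8 sample. Oas1a and Oas1g are near copies of each other and some reads cannot be assigned to one of them. Oasl1 had a log2 fold change of 0.27, Oas2 one of 0.17 and Oas3 one of 0.14, and the groups of Oas2 overlapped.

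Both Mx genes rose from low levels. Mx proteins are dynamin-like GTPases that trap viral nucleocapsids, and many laboratory mouse strains, BALB/c among them, carry a defective Mx1 allele. Mx1 was at 1.70, 1.03 and 1.25 FPKM in parental cells and at 3.03, 3.14 and 2.52 FPKM in M8, where the mean was 2.18 times as high. On the scale of log2(FPKM + 1), which understates changes of low genes, the log2 fold change was 0.75 (standard error 0.12, limma adjusted p = 0.00274), and with a pseudocount of 0.1 the Mx1 log2 fold change was 1.09. At these levels Mx1 rests on an estimated 78 to 212 reads per sample. Mx2 stood at 8.46, 8.49 and 9.47 FPKM in parental cells and at 11.9, 12.4 and 10.8 FPKM in M8 (log2 fold change 0.37). The groups did not overlap in either gene.

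Of the genes whose products act at membranes, Ifitm3, Bst2 and Ifitm2 had the highest FPKM of the list, and Ifitm1 lay below the list's median. IFITM proteins sit in cell and endosomal membranes and block the fusion of viruses, and BST2 (tetherin) holds budding virus particles on the cell surface. Ifitm3 stood at 1856, 1892 and 2084 FPKM in parental cells and at 2932, 2796 and 2662 FPKM in M8 (log2 fold change 0.53 ± 0.057, adjusted p by limma = 0.000477). Bst2 was at 853, 906 and 905 FPKM in parental cells and at 1251, 1307 and 1266 FPKM in M8 (log2 fold change 0.52). The lowest M8 value of each gene was far above its highest parental value. The other IFITM genes of the cluster had log2 fold changes of 0.12 for Ifitm2 (limma adjusted p = 0.0882) and 0.08 for Ifitm1 (limma adjusted p = 0.367). The Ifitm2 log2 fold change was 0.07 without parental replicate 3 and 0.02 with quantile normalization, and did not pass in either. Ifitm2 had 444 ± 27.2 FPKM in parental samples and 483 ± 7.75 FPKM in M8 (SD, n = 3 each), and Ifitm1 33.5 ± 2.74 and 35.3 ± 0.882 FPKM. The ratio of Ifitm3 to Ifitm2 within a sample was 4.03, 4.13 and 5.05 in parental cells and 6.14, 5.84 and 5.41 in M8.

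**Figure D2:**
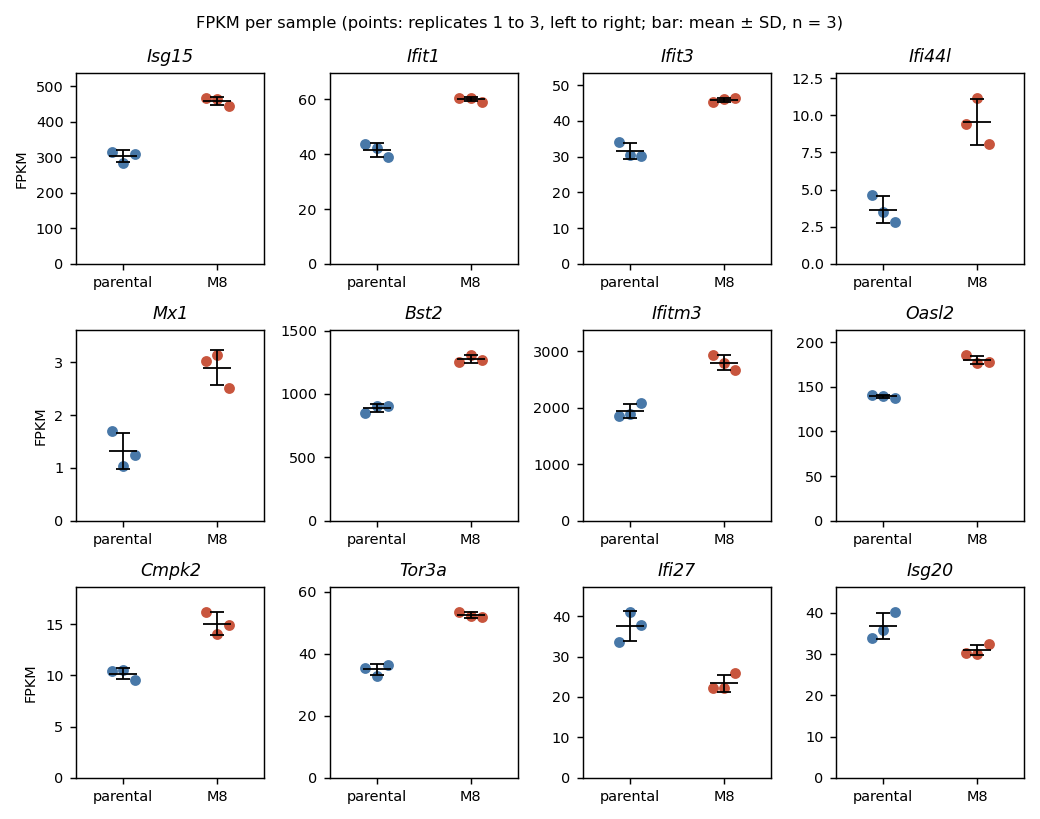
FPKM (vertical axis, from 0) of 12 effector genes in each parental and M8 sample, points being replicates 1 to 3 from left to right and bars the mean ± SD of 3 samples. The M8 points lie above the parental points in the first 10 genes, among them Ifitm3 with 2662 to 2932 FPKM against 1856 to 2084 FPKM, and below them in Ifi27 and Isg20.

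Isg15 and the enzyme that activates it both rose. ISG15 is a ubiquitin-like protein that is attached to other proteins by the E1 enzyme UBA7 and, in mice, the E3 ligase HERC6. Isg15 was at 315, 284 and 309 FPKM in parental cells and at 466, 463 and 444 FPKM in M8, a ratio of 1.51 (log2 fold change 0.60 ± 0.047, adjusted p by limma = 0.000163). Uba7 was at 9.67, 9.96 and 8.41 FPKM in parental cells and at 12.1, 11.8 and 11.3 FPKM in M8 (log2 fold change 0.30, limma adjusted p = 0.0104). The groups were apart in both genes, and Isg15 was far more abundant than its E1 enzyme by FPKM. Herc6 did not pass, with 18.1, 15.7 and 16.4 FPKM in parental samples and 18.5, 18.5 and 18.1 FPKM in M8 (log2 fold change 0.13, limma adjusted p = 0.120). Dtx3l, an E3 ligase that works with PARP9, rose by a log2 fold change of 0.28 (limma adjusted p = 0.00726). Its gene overlaps Parp9 on the other strand.

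In the group of TRIM and nuclear body genes, 4 of 6 rose, and of these calls Trim25 was lost in 8 of the 16 other fits, Trim21 in 6 and Trim30a in 1. TRIM proteins are ubiquitin ligases, of which TRIM25 activates the RNA sensor RIG-I and TRIM21 binds antibody-coated virus, and PML and SP100 form nuclear bodies that silence viral DNA. Sp100 rose most, from 45.2, 46.8 and 48.2 FPKM in parental cells to 61.4, 61.2 and 58.8 FPKM in M8 (log2 fold change 0.36 ± 0.042, adjusted p by limma = 0.000644). Pml, its partner, was at 33.0 ± 0.999 and 35.0 ± 1.07 FPKM (SD, n = 3 each) and did not pass (log2 fold change 0.08, limma adjusted p = 0.186). Trim25 was at 37.5, 35.8 and 35.6 FPKM in parental cells and at 39.2, 39.4 and 40.0 FPKM in M8, a difference of 0.12 on the log2 scale. The groups of Sp100 stood far apart compared with their spread, and those of Trim25 only just. Trim21, whose groups overlapped, and Trim30a had log2 fold changes of 0.21 and 0.17, and Trim34a one of 0.18 that did not pass (limma adjusted p = 0.213).

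Among 9 genes that act on RNA or nucleotides, 6 rose and Isg20 fell, with the call of Samhd1 lost in 10 of the 16 other fits and that of Helz2 in 7. Cmpk2, a mitochondrial nucleotide kinase, and Rsad2 (viperin), which turns CTP into a chain terminator of viral polymerases, are neighbours on chromosome 12 and rose most. Cmpk2 was at 10.5, 10.5 and 9.60 FPKM in parental cells and at 16.2, 14.0 and 14.96 FPKM in M8 (log2 fold change 0.52 ± 0.064, adjusted p by limma = 0.000859). Rsad2 was at 6.52, 4.87 and 5.55 FPKM in parental cells and at 8.44, 8.57 and 7.57 FPKM in M8 (log2 fold change 0.47, limma adjusted p = 0.00576). The mean of M8 was 1.48 times that of parental cells for Cmpk2 and 1.45 times for Rsad2. Eif2ak2 (PKR), the kinase that stops translation on double-stranded RNA, stood at 42.1, 40.1 and 39.4 FPKM in parental cells and at 52.3, 49.7 and 49.9 FPKM in M8 (log2 fold change 0.31). Adar, the enzyme that edits double-stranded RNA, had a log2 fold change of 0.20 (limma adjusted p = 0.00836), and Helz2, a helicase whose groups overlapped, one of 0.21.
Samhd1, which breaks down deoxynucleotides, was at 58.2, 56.3 and 59.8 FPKM in parental cells and at 63.7, 62.7 and 60.6 FPKM in M8 (log2 fold change 0.10, limma adjusted p = 0.0979). The RNA helicases Ddx60 and Znfx1 did not pass, with log2 fold changes of 0.16 and 0.05, although in both the M8 values lay above the parental values. Isg20, an exonuclease of single-stranded RNA, went the other way, from 34.0, 36.0 and 40.2 FPKM in parental cells to 30.4, 30.1 and 32.5 FPKM in M8 (log2 fold change -0.24 ± 0.063, adjusted p by limma = 0.0216). The highest M8 value of Isg20 was below the lowest parental value by a small margin.

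The IFI genes, which are named for their induction and not for a shared function, held both the largest rise and the largest fall. Ifi44l was at 4.61, 3.48 and 2.84 FPKM in parental cells and at 9.42, 11.2 and 8.06 FPKM in M8, where the mean was 2.62 times as high (log2 fold change 1.19 ± 0.14, adjusted p by limma = 0.000737). It rests on an estimated 90 to 254 reads per sample. Its neighbour Ifi44 was far more abundant, at 117, 101.0 and 99.9 FPKM in parental cells and at 125, 115 and 120 FPKM in M8 (log2 fold change 0.18, limma adjusted p = 0.0598), and its groups overlapped. The ratio of Ifi44l to Ifi44 within a sample was 0.0284 to 0.0393 in parental cells and 0.0673 to 0.0969 in M8.
Ifi27, a mitochondrial and nuclear membrane protein, fell from 33.7, 41.0 and 37.8 FPKM in parental cells to 22.2, 22.1 and 25.9 FPKM in M8, where the mean was 0.623 times that of parental cells (log2 fold change -0.66 ± 0.080, adjusted p by limma = 0.000811). Ifi27 was thus lower in every M8 sample, and the Ifi27 log2 fold change lay between -0.73 and -0.59 over the alternatives. Ifi35 and Nmi, whose products bind each other, both rose. Ifi35 was at 47.1, 46.6 and 48.1 FPKM in parental cells and at 59.3, 58.9 and 57.8 FPKM in M8 (log2 fold change 0.31), and Nmi at 22.8, 18.8 and 18.4 FPKM and at 27.4, 26.4 and 24.8 FPKM (log2 fold change 0.38). Their groups did not overlap. Ifi30, a lysosomal thiol reductase that prepares antigens for presentation, was at 50.03, 49.96 and 51.5 FPKM in parental cells and at 49.7, 49.0 and 47.0 FPKM in M8. This difference did not pass the test (log2 fold change -0.06 ± 0.041, adjusted p by limma = 0.338). With quantile normalization Ifi30 was called lower (Ifi30 log2 fold change -0.13, limma adjusted p = 0.0358), and in the 15 other fits it was not.

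Of 6 further effectors, 5 rose. Tor3a, an ATPase of the endoplasmic reticulum, stood at 35.5, 33.0 and 36.3 FPKM in parental cells and at 53.5, 52.2 and 51.7 FPKM in M8 (log2 fold change 0.57 ± 0.047, adjusted p by limma = 0.000163). Lgals3bp, a secreted glycoprotein that binds galectin-3, was at 179, 177 and 168 FPKM in parental cells and at 233, 235 and 238 FPKM in M8 (log2 fold change 0.43). Lgals9, the sugar-binding protein galectin-9, was at 135, 124 and 139 FPKM in parental cells and at 178, 175 and 169 FPKM in M8 (log2 fold change 0.39). In these 3 genes the lines were apart by several times the spread between samples. Xaf1, which counters the apoptosis inhibitor XIAP, and Rtp4, a chaperone of receptors, had log2 fold changes of 0.27 and 0.19. Samd9l, which restricts poxviruses, was at 24.3, 19.8 and 17.7 FPKM in parental cells and at 22.4, 19.5 and 19.5 FPKM in M8. Its 2 groups overlapped, and its log2 fold change had a standard error of 0.10 around a value near 0, with a sign that depended on the processing.

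**Figure D3:**
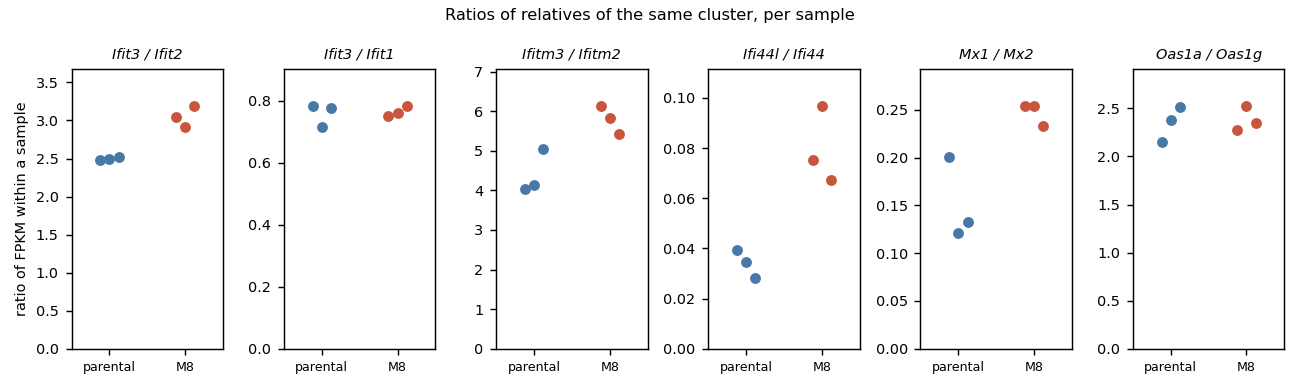
Ratio of FPKM of relatives of the same cluster within each sample (vertical axes, from 0), with replicates 1 to 3 from left to right. The gene with the larger log2 fold change is the numerator, so the direction of the ratios follows from that choice. The ratios Ifit3 / Ifit2, Ifitm3 / Ifitm2, Ifi44l / Ifi44 and Mx1 / Mx2 were higher in all 3 M8 samples, and Ifit3 / Ifit1 and Oas1a / Oas1g overlapped between the lines.

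Relatives that lie in the same cluster on a chromosome were compared within samples, as the log2 ratio of their FPKM + 1. In each pair the gene with the larger log2 fold change was placed first, so every difference is positive by construction. Of the 15 pairs within the IFIT, OAS, OASL, MX, IFITM and IFI44 families, that of Ifi44l and Ifi44 differed between the lines by 1.01 (standard error 0.17), that of Ifitm3 and Ifitm1 by 0.45 (standard error 0.063), that of Ifitm3 and Ifitm2 by 0.40 (standard error 0.12) and that of Mx1 and Mx2 by 0.38 (standard error 0.14). The added 1 understates the differences of pairs with a low gene, such as Mx1 or Ifi44l, so the pairs are not ranked by size. Ifit3 and Ifit2 differed by 0.29 (standard error 0.036) and Ifit3 and Ifit1 by 0.0088 (standard error 0.044). With 3 samples against 3 the exact two-sided permutation test could not go below p = 0.1 for any of the 15, and the smallest value adjusted over the 15 pairs was 0.188, so these differences are given as values with their errors.

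The effector genes also shared part of their order among the samples of a line. In parental cells replicate 1 held the highest of the 3 values in 29 of the 46 genes (63.0%), where it did so in 33.3% of all genes tested, and the genes stood at a median of 0.053 above the parental mean in it on the log2 scale. They stood at -0.038 in replicate 2 and -0.030 in replicate 3. In M8, replicate 1 held the highest value in 24 genes (52.2%, and 36.2% of all genes) and replicate 3 the lowest in 24 (52.2%, and 36.2% of all genes), with medians of 0.019, 0.0074 and -0.020 around the M8 mean. These shifts are small beside the median difference of 0.27 between the lines. The median coefficient of variation of the effector genes was 6.09% in parental cells and 3.27% in M8, beside 5.62% and 4.42% over all genes tested. Without parental replicate 1 the median of the 46 log2 fold changes was 0.29, and it was 0.24 without parental replicate 2 or 3.

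**Figure D4:**
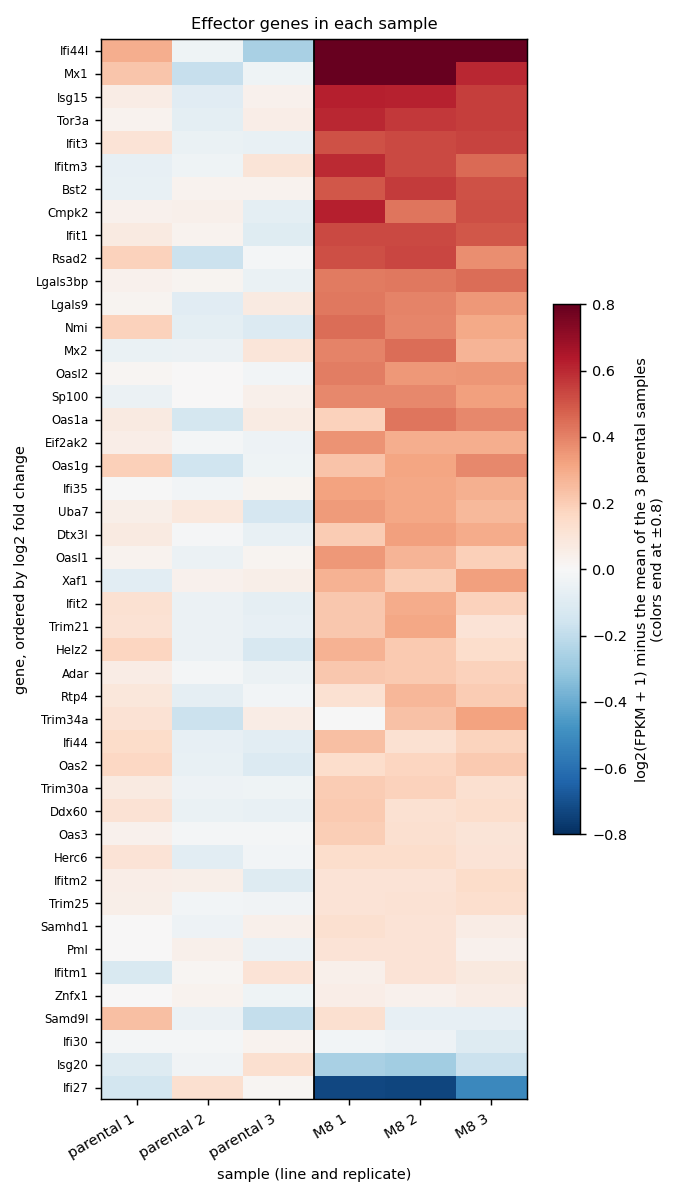
Log2(FPKM + 1) of each effector gene (rows, ordered by log2 fold change) in each sample (columns), minus the mean of the 3 parental samples, with colors ending at 0.8 in either direction. The upper rows are red in all 3 M8 samples, Ifi27 and Isg20 at the foot are blue in them, and many rows are redder in parental replicate 1 than in parental replicates 2 and 3.

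The genes that make, receive and transmit the interferon signal did not move as one. Of 44 listed genes of this kind, 29 were tested, of which 10 (34.5%) were higher in M8 and 4 (13.8%) were lower, beside 21.2% and 16.5% of all genes tested, with a median log2 fold change of 0.041. Of 12 interferon ligand genes none reached a mean of 1 FPKM. Ifnb1, which encodes interferon beta, was listed at 0.14, 0.07 and 0.07 FPKM in parental cells and at 0, 0.45 and 0.25 FPKM in M8, too low to compare. None of 5 receptor genes tested passed, with log2 fold changes from -0.15 to 0.16. Stat2 rose from 32.4 ± 2.73 FPKM in parental samples to 40.6 ± 1.35 FPKM in M8 (SD, n = 3), a difference of 0.32 on the log2 scale (limma adjusted p = 0.00488), and Irf9 rose by 0.12. The kinase gene Tyk2 fell (log2 fold change -0.29, limma adjusted p = 0.0122). Among the regulatory factors Irf7, which drives the later wave of interferon production, rose from 339 ± 8.66 FPKM in parental samples to 443 ± 3.39 FPKM in M8 (SD, n = 3), and Irf2 fell (log2 fold change -0.19, limma adjusted p = 0.0776).
Of 10 sensors and adaptors, Zbp1, a sensor of Z-form nucleic acids, rose most (log2 fold change 0.83, limma adjusted p = 0.000132), Ddx58 (RIG-I), Ifih1 (MDA5), Tlr3 and Mavs had log2 fold changes from 0.14 to 0.29, and the kinase gene Ikbke fell (log2 fold change -0.28). Usp18, the enzyme that removes ISG15 from proteins and dampens the receptor, rose from 112 ± 2.55 FPKM in parental samples to 167 ± 8.31 FPKM in M8 (SD, n = 3), a log2 fold change of 0.57 (limma adjusted p = 0.000163). Trex1, a DNA exonuclease, was at 11.8, 11.9 and 8.46 FPKM in parental cells and at 14.4, 14.6 and 13.6 FPKM in M8, and rose by 0.39 on the log2 scale. Parental replicate 3 was the low sample, and without it the Trex1 log2 fold change was 0.25 and still passed. The feedback inhibitor Socs3 fell by 0.24 on the log2 scale. The count of lower genes was 2 without parental replicate 2, where neither Irf2 (Irf2 log2 fold change -0.19, limma adjusted p = 0.145) nor Socs3 (Socs3 log2 fold change -0.19, limma adjusted p = 0.103) passed. The groups of Irf2 overlapped, and its call was also lost with no filter, with eBayes without a trend and without parental replicate 3 or M8 replicate 1 or 2 (limma adjusted p from 0.110 to 0.253 over the fits that lost it). The call of Irf9 was lost with TPM, quantile normalization and without M8 replicate 2 or 3 (Irf9 log2 fold change with limma adjusted p from 0.105 to 0.415), and that of Mavs with TPM, quantile normalization and without M8 replicate 1 (Mavs log2 fold change with limma adjusted p from 0.111 to 0.113).

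**Figure D5:**
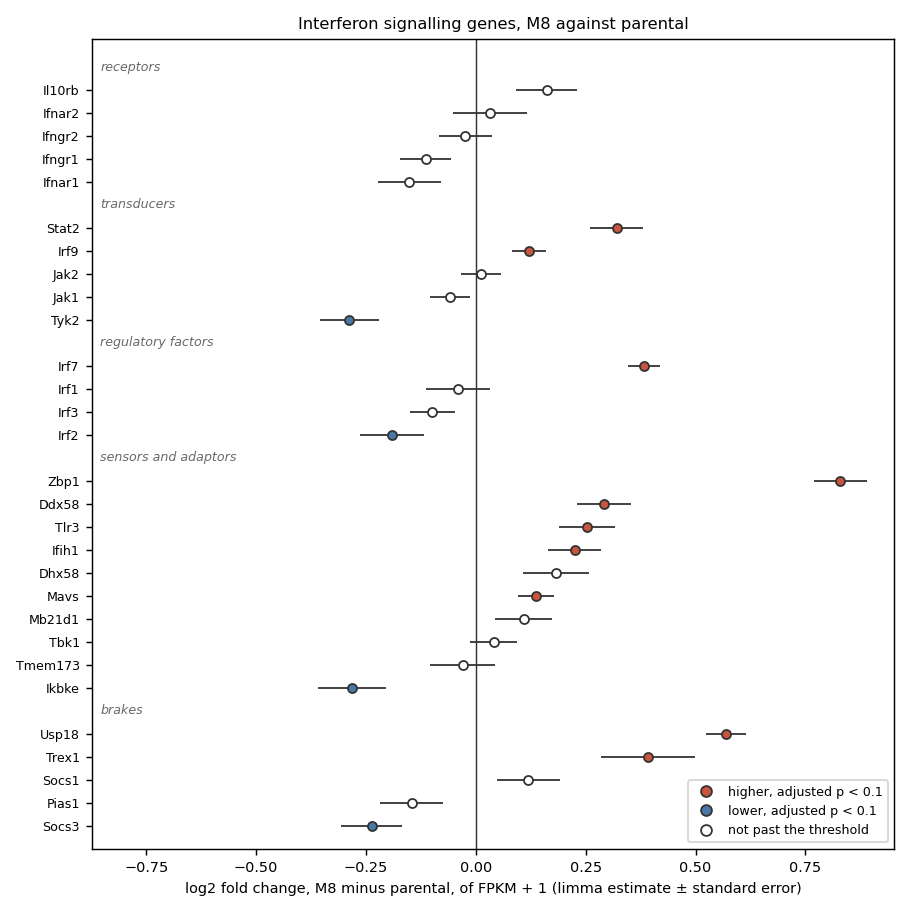
Log2 fold change of FPKM + 1, M8 minus parental, with limma's standard error, for the 29 interferon signalling genes tested, grouped by role. Of these, 10 lie to the right of 0 and passed (filled red, Zbp1 farthest at 0.83), 4 to the left and passed (filled blue), and the 5 receptors are open points.

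Several of the effector genes lie in clusters. By GENCODE M21 (GRCm38), Ifit2, Ifit3 and Ifit1 lie on chromosome 19 between 34550694 and 34650009, Ifi44 and Ifi44l on chromosome 3 between 151730922 and 151762892, and Rsad2 and Cmpk2 on chromosome 12 between 26442746 and 26479837. Oasl2 and Oasl1 lie on chromosome 5 between 114896936 and 114937915, and Oas2, Oas3, Oas1g and Oas1a farther along it between 120730333 and 120907521. Ifitm2, Ifitm1 and Ifitm3 are on chromosome 7 between 140954837 and 141010770, Mx1 and Mx2 on chromosome 16 between 97447035 and 97560900, Isg15 on chromosome 4 from 156199424 to 156200818, Bst2 on chromosome 8 from 71534255 to 71537456 and Ifi27 on chromosome 12 from 103434211 to 103440239. Other annotated genes overlap 16 of the 46 genes, on the same strand in 5 (Ifitm2, Uba7, Herc6, Sp100 and Rtp4). The libraries kept the strand of the RNA, but whether reads were assigned by strand is not given in the sources used here, so reads of another gene in their values were not separated here.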

How the data were processed

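Stranded mRNA libraries of 3 parental and 3 M8 samples were read as single reads. The authors aligned them by TopHat to the mm10 build and deposited 1 FPKM value per gene symbol, made by Cufflinks. The submitters' processing notes name TopHat2 2.1.1, Bowtie2 2.2.8, SAMtools 0.1.18 and Cuffdiff 2.2.1. The gene annotation and any filter are not given in the sources used here. The study's own test used read counts, which were not used here. The deposited FPKM values were tested with limma 3.58.1 in R 4.3.3 on log2(FPKM + 1), with a variance trend, over 10597 genes with a mean of at least 1 FPKM, without covariates. Benjamini-Hochberg adjustment ran over all these genes, with the study's threshold of 0.1. FPKM values hold no read counts, so no counting interval is given. Depth was estimated from single-transcript genes of at least 1500 bases, where 76.5% to 79.9% of low values were whole reads within 0.1 read, and read estimates use the longest transcript. The gene list, roles and tests were chosen with earlier results of these data known. From the signalling list, 1 gene is not reported here. Values in every sample are given for effector genes past the threshold with a log2 fold change of at least 0.3, for effector genes lower in M8 and for the 2 most abundant genes of a role. The fit was tested on simulated data. Alternatives are named in the closing section. Tables, exact tests and plots were made with scipy 1.17.1, pandas 2.3.3 and matplotlib 3.10.9 under Python 3.11.15.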

Additional observations from a re-analysis of the deposited data

How the results depend on the processing

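Other settings tried were TPM, quantile normalization, upper-quartile scaling and median centring, pseudocounts of 0.1 and 0.5, a minimum of 5 FPKM or none, eBayes with no trend, a stricter threshold of 0.05, a 1.5-fold minimum, a replicate block, and fits without 1 sample. With the 1.5-fold minimum, the counts fell to 3 higher and 1 lower effector genes and to 1 higher and 0 lower signalling genes, since that rule removes small changes. With each sample left out, 29 to 37 effector genes were higher and 2 were lower, and 9 to 11 signalling genes were higher and 2 to 5 were lower. Over all genes tested, 1609 to 2101 were higher and 1157 to 1672 lower in these fits. The Samd9l log2 fold change, near 0, turned positive with pseudocounts of 0.1 (0.00030) and 0.5 (0.00013) and with median centring (0.00075), and it ranged from -0.096 to 0.12 with each sample left out, without passing the threshold. The median log2 fold change of all genes was 0.0069 in the main fit, -0.028 with TPM and -0.018 with upper-quartile scaling. It was -0.00093 with quantile normalization and 0.0077 with median centring. Some called changes are themselves small, such as Samhd1 (log2 fold change 0.10) and Trim25 (log2 fold change 0.12), and both calls were lost with TPM. With quantile normalization 3 effector genes were lower, Ifi30 being the gene added. Mx1 was left out of the test by the minimum of 5 FPKM. Of the 10 effector calls that were lost in a fit that tested the gene, Samhd1, Ifitm2 and Oas2 were lost in 10 of the 16 fits and Trim30a in 1. The highest adjusted p in limma among these was 0.838, for Ifitm2. The cause was not tested. Deviations of same-numbered samples of the lines had r = 0.10, -0.11 and -0.033 across genes for numbers 1 to 3. Samples of unlike number had r from -0.128 to 0.181. Deviations from a mean of 3 samples are tied to one another, so these values cannot decide whether the numbers pair the samples. With the replicate block 35 effector genes were higher and 2 lower, and Ifitm2 and Samhd1 were no longer called, while 11 signalling genes were higher and 4 lower. Genes at a few FPKM, such as Mx1 and Ifi44l, rest on the fewest reads, and their fold changes move most with the pseudocount.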
